A study of Mus musculus with 20 samples.

Results

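The genes of the endothelin and renin-angiotensin systems were followed in the uterus of pregnant mice just before implantation. They were chosen by symbol and comprised 3 endothelin genes (Edn1, Edn2 and Edn3), both endothelin receptors (Ednra and Ednrb), the converting enzyme Ece1, angiotensinogen (Agt), the converting enzyme Ace and 2 angiotensin receptors (Agtr1a and Agtr2), which are 10 of the 45777 genes measured. RNA-seq libraries from 20 wild-type B6D2F1 females aged 8 to 12 weeks were compared, with 5 mice in each of 4 groups and 1 library per mouse. All mice were mated, the morning of the plug was day 0.5, and RNA was taken from a uterine horn at 18:00 on day 3.5. Control mice received no treatment. Mice of the implantation failure (IF) group received 3 mg/kg RU486, an antagonist of the progesterone and glucocorticoid receptors, under the skin on the morning of day 3.5. Mice of the PBMC and PBMC-hCG groups received the same RU486 and, on day 1.5, an injection of 50000 peripheral blood mononuclear cells into each horn after culture, in the PBMC-hCG case with 5 IU/mL of human chorionic gonadotropin (hCG). The cells came from other, non-pregnant mice. Mice given medium without cells were not analysed here, so the effect of the injection itself cannot be told apart from that of the cells.

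Endothelins are short peptides cut from larger precursors by endothelin-converting enzymes. The type A receptor, encoded by Ednra, is found mainly on smooth muscle and drives contraction, while the type B receptor, encoded by Ednrb, is known for nitric oxide release from endothelium and for removing endothelin from the circulation. In the renin-angiotensin system, renin and angiotensin-converting enzyme cut angiotensinogen to angiotensin II, which acts on the type 1 receptor to constrict vessels and on the type 2 receptor, whose actions are often opposed. Both systems act on vessels and on the muscle of the uterus.

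In control mice the order of the mean levels, in TPM (a transcript's share of its library, corrected for transcript length), was Ece1, Ednrb, Ednra, Ace, Agtr1a, Agtr2, Edn1, Edn3, Agt and Edn2. Of the neighbours in this order, the ranges of Ednra and Ace, of Edn3 and Agt and of Agt and Edn2 did not overlap, and those of the other neighbours did. Edn2 was barely measured. It was listed at 0 in 3 of 5 mice of every group, and its highest value was 0.436 TPM, in a control mouse. It was therefore left out of the fit across genes, which held the 18706 genes above 0 TPM in all 20 libraries, and 9 of the 10 genes were tested.

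The promoters of both receptors and of both measured ligands are shown because Ednra and Ednrb, and Edn1 and Edn3, moved in opposite directions between control and IF mice. They are the 250 bases before a RefSeq start site in GRCm38.p6, the build the authors mapped to (mm10), written from 5′ to 3′ on the strand of the gene, with matches to the motifs searched in capitals.
Ednra (chr8:77724453-77724702, minus strand): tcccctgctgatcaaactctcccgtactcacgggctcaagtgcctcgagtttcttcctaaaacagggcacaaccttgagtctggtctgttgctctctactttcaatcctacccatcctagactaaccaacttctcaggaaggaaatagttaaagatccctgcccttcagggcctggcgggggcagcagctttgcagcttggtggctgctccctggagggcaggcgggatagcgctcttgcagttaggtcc
Ednrb (chr14:103843702-103843951, minus strand): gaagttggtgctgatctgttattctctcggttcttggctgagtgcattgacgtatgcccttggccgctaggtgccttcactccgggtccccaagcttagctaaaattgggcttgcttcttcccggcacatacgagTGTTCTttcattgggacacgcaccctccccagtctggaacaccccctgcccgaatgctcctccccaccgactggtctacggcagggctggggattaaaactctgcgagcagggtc
Edn1 (chr13:42301226-42301475, plus strand): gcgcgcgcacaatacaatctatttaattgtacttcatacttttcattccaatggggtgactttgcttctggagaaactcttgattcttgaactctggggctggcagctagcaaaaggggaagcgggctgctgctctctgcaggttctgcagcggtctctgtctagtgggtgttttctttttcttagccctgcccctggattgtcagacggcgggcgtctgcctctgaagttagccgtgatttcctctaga
Edn3 (chr2:174760369-174760618, plus strand): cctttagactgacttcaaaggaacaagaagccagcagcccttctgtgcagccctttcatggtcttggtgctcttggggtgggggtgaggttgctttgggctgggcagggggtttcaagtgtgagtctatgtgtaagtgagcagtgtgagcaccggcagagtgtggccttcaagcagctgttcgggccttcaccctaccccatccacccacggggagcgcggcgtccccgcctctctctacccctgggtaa

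Motifs of 4 kinds were searched on both strands, a motif of progesterone and glucocorticoid receptors (AGAACA), a motif of estrogen receptors (GGTCA), AP-1 (TGANTCA) and the TATA box (TATAAA). In these 4 windows the only match was TGTTCT, the reverse strand of AGAACA, which lies 115 to 110 bases before the start of Ednrb. That motif is in 16.1% of the 32851 windows of the same length in RefSeq, GGTCA in 35.2%, TGANTCA in 6.75% and TATAAA in 12.4%, so a match is a description of the letters and not evidence of binding. A RefSeq window was found for 9 of the 10 genes, all but Agtr1a. The Ednrb window lies inside the annotated span of that gene, which begins farther upstream.

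The uterine libraries held high levels of smooth muscle, stromal, endothelial and epithelial markers, and also of gland, red cell and leukocyte markers. Control mouse 2 stood apart. Its log2 values correlated at a mean r of 0.963 with the other control mice, against 0.977 to 0.983 for the other 4 control mice, its summed level of 5 gland markers was 23928 TPM against 1250 to 7734 TPM, and its summed level of 5 adipocyte markers was 175 TPM against at most 5.73 TPM. Some results against control mice are therefore also given without it. TPM totals are the same by construction in all libraries, so read depth is unknown. In RefSeq, 5 of the 10 genes (Ace, Ece1, Edn2, Ednra and Ednrb) overlap a long noncoding RNA gene. Whether strand was used in the assembly of transcripts is not given in the sources used here, so reads of these genes and of their overlapping partners may not be fully separated.

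The comparison of IF with control mice addressed the preimplantation uterus after RU486. No injection of vehicle is described for control mice, so RU486 and its injection cannot be told apart. Of the 9 tested genes, 6 rose and 2 fell in IF mice (adjusted p under 0.05, limma), where 21.9% of all tested genes were called, 13.4% higher and 8.53% lower. The median log2 fold change was 0.587 over the 9 genes and 0.0223 over all tested genes. The genes were chosen with earlier results of these data known, so these counts are descriptions and not a test of the group. In 5 genes (Edn1, Ednra, Ece1 and Ace above, Ednrb below) the IF and control mice did not overlap, which held for 12.8% of all tested genes. These are bulk libraries, in which fewer cells of a type and less RNA per cell cannot be told apart.

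Ednrb (chromosome 14, 103814615 to 103844508), the type B receptor, fell most clearly. It was at 30.7, 80.0, 29.6, 34.3 and 30.6 TPM in control mice 1 to 5 and at 16.6, 14.0, 14.1, 15.7 and 14.6 TPM in IF mice. Every IF mouse lay below every control mouse, and the control mouse at 80.0 TPM was the one that stood apart in the other measures. The log2 fold change was -1.33 (standard error, SE, 0.19, 95% interval -1.73 to -0.92, adjusted p = 7.97e-05), or 2.51-fold lower, and without control mouse 2 it was -1.05 (adjusted p = 1.75e-07).

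Ednra (chromosome 8, 77663029 to 77724452), the type A receptor, moved the other way. It was at 42.5, 27.0, 43.5, 43.6 and 35.7 TPM in control mice, and at 62.7, 80.5, 55.5, 60.8 and 78.8 TPM in IF mice, again with no overlap. It rose 1.76-fold (log2 fold change 0.82, SE 0.12, 95% interval 0.57 to 1.07, adjusted p = 8.58e-05). Without control mouse 2 the log2 fold change was 0.70 (adjusted p = 5.01e-05). The receptor balance therefore differed between the groups while the summed level did not separate them. The ratio of Ednra to Ednrb lay between 0.338 and 1.47 in control mice (median 1.27) and between 3.77 and 5.73 in IF mice (median 3.93), whereas the sum of both receptors was 66.3 to 107 TPM in control and 69.6 to 94.5 TPM in IF mice. Control mouse 2 had both the lowest ratio and the highest sum of the control group, and the ratio was 1.17 to 1.47 in the other control mice. The ratio and the sum are descriptions made from the values already tested.

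In PBMC mice, Ednrb was at 13.0, 15.8, 17.1, 16.2 and 17.6 TPM and Ednra at 73.6, 66.3, 67.5, 57.3 and 67.4 TPM. In PBMC-hCG mice, Ednrb was at 18.4, 15.6, 15.5, 15.2 and 15.5 TPM and Ednra at 59.9, 62.0, 62.2, 60.0 and 60.1 TPM. Both receptors overlapped the IF range and stayed clear of the control range in both cell-treated groups. Groups that do not overlap were found in 12.7% of all tested genes between PBMC and control mice and in 18.3% between PBMC-hCG and control mice. Ednrb differed from IF by a log2 fold change of 0.08 in PBMC mice (95% interval -0.33 to 0.49) and 0.09 in PBMC-hCG mice (95% interval -0.32 to 0.50), and Ednra by -0.02 (95% interval -0.27 to 0.24) and -0.14 (95% interval -0.39 to 0.12). These intervals do not reach the size of the change between control and IF mice in either receptor. The ratio of Ednra to Ednrb was 3.53 to 5.65 in PBMC mice and 3.26 to 4.03 in PBMC-hCG mice. Spread of Ednra was smallest in PBMC-hCG mice, with an SD of 1.15 TPM against 11.3 TPM in IF mice (n = 5 each), a difference in spread that was not tested.

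**Figure D1:**
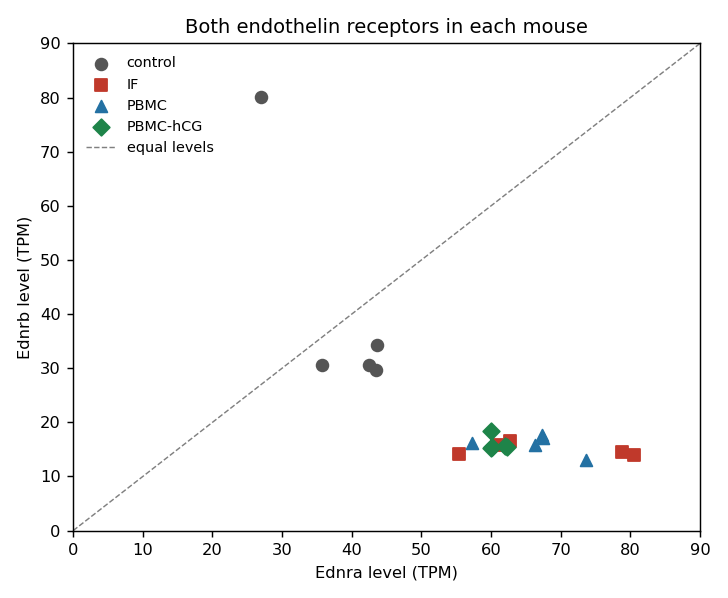
Level of Ednrb (vertical axis, TPM) against that of Ednra (horizontal axis, TPM) in each of the 20 mice, 1 point per mouse, with symbols for the 4 groups and a dashed line of equal levels. The 15 mice given RU486 lie together far below the line, with Ednrb between 13.0 and 18.4 TPM, while 4 control mice lie near the line and control mouse 2 far above it.

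Among the ligands, Edn1 (chromosome 13, 42301476 to 42307990), which encodes endothelin 1, a strong vessel constrictor, rose in IF mice. It was at 9.24, 9.32, 12.8, 13.9 and 7.22 TPM in control mice, and at 17.7, 16.2, 17.6, 15.5 and 22.0 TPM in IF mice. All IF values lay above all control values, a rise of 1.72-fold (log2 fold change 0.79, SE 0.16, adjusted p = 0.00125). Edn1 was at 12.7 to 17.1 TPM in PBMC mice and 11.0 to 16.5 TPM in PBMC-hCG mice, which overlapped both other groups. Against IF, its log2 fold change was -0.23 in PBMC mice (95% interval -0.55 to 0.10) and -0.31 in PBMC-hCG mice (95% interval -0.63 to 0.02, adjusted p = 0.163).

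Edn3 (chromosome 2, 174760619 to 174784042) encodes endothelin 3, which binds the type B receptor far better than type A. It was at 8.48, 5.81, 8.28, 7.15 and 3.48 TPM in control mice, and at 3.52, 2.47, 5.77, 2.43 and 1.18 TPM in IF mice. It fell in IF mice, 2.29-fold, although control mouse 5 and IF mice 1 and 3 overlapped (log2 fold change -1.19, SE 0.42, adjusted p = 0.0494). This call lies at the threshold. It was lost without any of 8 of the 10 mice, all but control mouse 5 and IF mouse 3, with adjusted p up to 0.143 and log2 fold changes from -1.46 to -0.91.

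In PBMC mice Edn3 was at 4.96, 5.32, 3.75, 7.04 and 1.17 TPM, and in PBMC-hCG mice at 4.34, 7.76, 9.86, 7.83 and 7.66 TPM. Thus 4 of 5 PBMC-hCG mice lay above every IF mouse, and the group overlapped the control mice. Edn3 was the only one of the 9 genes called between PBMC-hCG and IF mice, where 13.6% of all tested genes were called. Its log2 fold change was 1.38 (SE 0.42, 95% interval 0.50 to 2.27, adjusted p = 0.0411). Against control, PBMC-hCG mice differed by 0.19 (95% interval -0.69 to 1.07). Between PBMC and IF mice the log2 fold change was 0.49 (95% interval -0.40 to 1.37), and between PBMC-hCG and PBMC mice 0.90 (95% interval 0.01 to 1.78, adjusted p = 0.306).

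The call of Edn3 between PBMC-hCG and IF mice was lost without any of 7 of the 10 mice (IF mice 2, 4 and 5 and PBMC-hCG mice 2, 3, 4 and 5), with a log2 fold change of 1.10 to 1.65 and an adjusted p of 0.0138 to 0.137 over all 10. The comparison as a whole behaved likewise. Without each of those 7 mice, 0 to 34 of all tested genes were called, against 2544 with all mice and 2334 to 5061 without each of the other 3. Some markers of several cell types were also called in this comparison, where 13.6% of all tested genes were. Of 7 endothelial markers Emcn was called higher, and their summed level did not overlap, at 581 to 626 TPM in IF and 641 to 723 TPM in PBMC-hCG mice. Of 6 smooth muscle markers none was called by limma, and their summed level was 5635 to 6706 TPM in IF and 4525 to 5658 TPM in PBMC-hCG mice. Of 6 stromal markers Hoxa10 (adjusted p = 0.0471) and Pdgfra were higher, with summed levels of 6097 to 7063 TPM and 7015 to 7755 TPM. Of 6 epithelial markers Krt8 was higher, with summed levels of 755 to 974 TPM and 877 to 1169 TPM. Of 5 red cell markers the hemoglobin genes Hba-a2 and Hbb-bs were lower, with summed levels of 640 to 1802 TPM and 342 to 878 TPM. None of 6 pericyte, 5 gland, 7 tested leukocyte, 7 mast cell and 4 tested ovary and oviduct markers was called by limma. The part of all these markers in the result was not tested.

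Ece1 (chromosome 4, 137862237 to 137965229), the enzyme that releases the active endothelins, had the highest mean level of the 10 genes in all 4 groups, although Ednrb exceeded it in control mouse 2. It was at 94.9, 59.6, 89.3, 95.9 and 72.8 TPM in control mice, and at 131, 117, 110, 125 and 153 TPM in IF mice, with no overlap. It rose 1.56-fold in IF mice (log2 fold change 0.64, SE 0.12, adjusted p = 0.000996). Without control mouse 2 the log2 fold change was 0.53 (adjusted p = 0.00132). PBMC mice were at 116, 127, 150, 123 and 152 TPM and PBMC-hCG mice at 126, 105, 106, 99.5 and 106 TPM, where 4 of 5 PBMC-hCG mice lay below every PBMC mouse. That difference, a log2 fold change of -0.30 (95% interval -0.55 to -0.04), did not pass adjustment (adjusted p = 0.286).

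**Figure D2:**
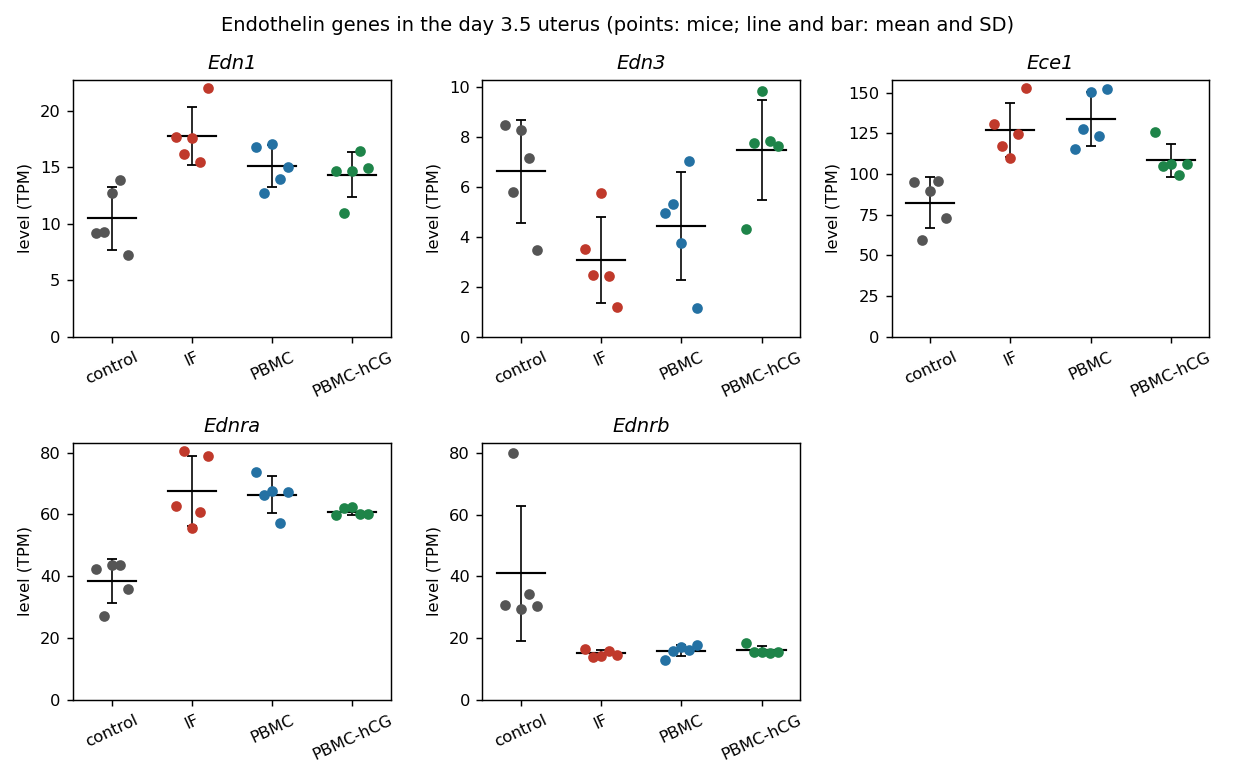
Level (TPM, axes from 0) of the 5 endothelin genes above the filter in the 4 groups of mice, with a point per mouse, a line at the mean and a bar of 1 SD (n = 5 mice). Ednra, Edn1 and Ece1 sit higher and Ednrb lower in the 15 mice given RU486 than in most control mice, while Edn3 in PBMC-hCG mice, at 4.34 to 9.86 TPM, overlaps the control mice.

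Agt (chromosome 8, 124556587 to 124569706), the precursor of the angiotensins, was low in all groups. It was at 1.23, 1.59, 1.60, 1.17 and 1.15 TPM in control mice, and at 1.39, 2.44, 1.46, 3.03 and 2.41 TPM in IF mice. IF mice 2, 4 and 5 lay above all control mice, and IF mice 1 and 3 lay within their range. It rose 1.50-fold in IF mice (log2 fold change 0.59, SE 0.20, adjusted p = 0.0407), a call that was lost without any of control mice 1, 4 and 5 and IF mice 2, 4 and 5, with adjusted p up to 0.114. PBMC mice were at 1.53 to 2.27 TPM and PBMC-hCG mice at 1.15 to 1.94 TPM, with log2 fold changes against IF of -0.07 (95% interval -0.49 to 0.35) and -0.30 (95% interval -0.72 to 0.11).

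Ace (chromosome 11, 105967948 to 105989964), which makes angiotensin II from angiotensin I, rose by a small amount. It was at 23.0, 15.1, 25.7, 25.2 and 19.4 TPM in control mice, and at 26.4, 27.9, 26.8, 26.5 and 31.9 TPM in IF mice. The lowest IF mouse lay just above the highest control mouse, with a 1.31-fold rise (log2 fold change 0.39, SE 0.11, adjusted p = 0.0166), and without control mouse 2 the log2 fold change was 0.26 (adjusted p = 0.0217). Ace stayed at 26.2 to 28.0 TPM in PBMC mice and 24.2 to 29.5 TPM in PBMC-hCG mice. Its log2 fold change against IF was -0.06 in both groups, with 95% intervals of -0.29 to 0.17.

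Agtr1a (chromosome 13, 30336356 to 30382867) encodes the main type 1 angiotensin receptor of rodents. It was at 9.79, 20.1, 11.2, 11.6 and 8.58 TPM in control mice, with control mouse 2 highest, and at 19.2, 17.3, 29.6, 11.8 and 11.4 TPM in IF mice. The groups overlapped and the difference did not pass adjustment (log2 fold change 0.51, 95% interval -0.09 to 1.12, adjusted p = 0.227; without control mouse 2, 0.71, adjusted p = 0.0728). PBMC mice were at 23.4, 26.5, 17.2, 26.1 and 10.7 TPM and PBMC-hCG mice at 18.6, 33.7, 32.8, 33.4 and 32.7 TPM. In 4 of 5 PBMC-hCG mice Agtr1a was above every mouse of the other 3 groups. Against control it rose 2.51-fold in PBMC-hCG mice (log2 fold change 1.33, SE 0.29, adjusted p = 0.0021), while against IF the log2 fold change of 0.81 (95% interval 0.21 to 1.42) did not pass adjustment (adjusted p = 0.0628). It passed without IF mouse 3 (1.02, adjusted p = 0.0176) or PBMC-hCG mouse 1 (0.98, adjusted p = 0.0274). In those fits 5061 and 4166 of all tested genes were called, against 2544 with all mice. With each mouse left out in turn the log2 fold change was 0.68 to 1.02, with adjusted p up to 0.186. Reads of Agtr1a and of its close copy Agtr1b may not be fully separated. Agtr1b itself was at 0.212 to 0.350 TPM in IF mice and 0.506 to 1.26 TPM in PBMC-hCG mice (log2 fold change 1.29, adjusted p = 0.0258) and is named here after its values were seen. That call was lost without any of the 7 mice named for Edn3.

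In each of the 4 groups the mouse with the lowest Agtr1a was also the mouse with the lowest Edn3. This was mouse 5 of the control, IF and PBMC groups and mouse 1 in the PBMC-hCG group. The same mice had the highest Ren1 of their groups, at 3.57, 19.2, 12.2 and 7.21 TPM in that order. They also had the highest Prep, at 26.3, 33.8, 29.6 and 21.3 TPM. The results of Edn3, Agtr1a, Ren1 and Prep are therefore not to be read as separate changes. These observations were made after the values were seen and are given without a test.

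Agtr2 (chromosome X, 21484624 to 21488833), the type 2 receptor, rose in IF mice. It was at 8.19, 5.10, 12.4, 12.1 and 19.5 TPM in control mice, and at 14.6, 24.6, 20.8, 29.8 and 20.8 TPM in IF mice. Control mouse 5 lay within the IF range and the other 4 control mice lay below it. The log2 fold change was 1.04 (SE 0.24, 95% interval 0.53 to 1.55, adjusted p = 0.00475), or 2.06-fold, and 0.79 without control mouse 2 (adjusted p = 0.00555). In the cell-treated groups it was less spread, at 14.9 to 18.2 TPM in PBMC mice and 15.8 to 19.0 TPM in PBMC-hCG mice, with log2 fold changes against IF of -0.36 (95% interval -0.87 to 0.15) and -0.31 (95% interval -0.82 to 0.20). The ratio of Agtr1a to Agtr2 had medians of 0.960 in control, 0.705 in IF, 1.49 in PBMC and 1.93 in PBMC-hCG mice, and its ranges overlapped between all groups.

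**Figure D3:**
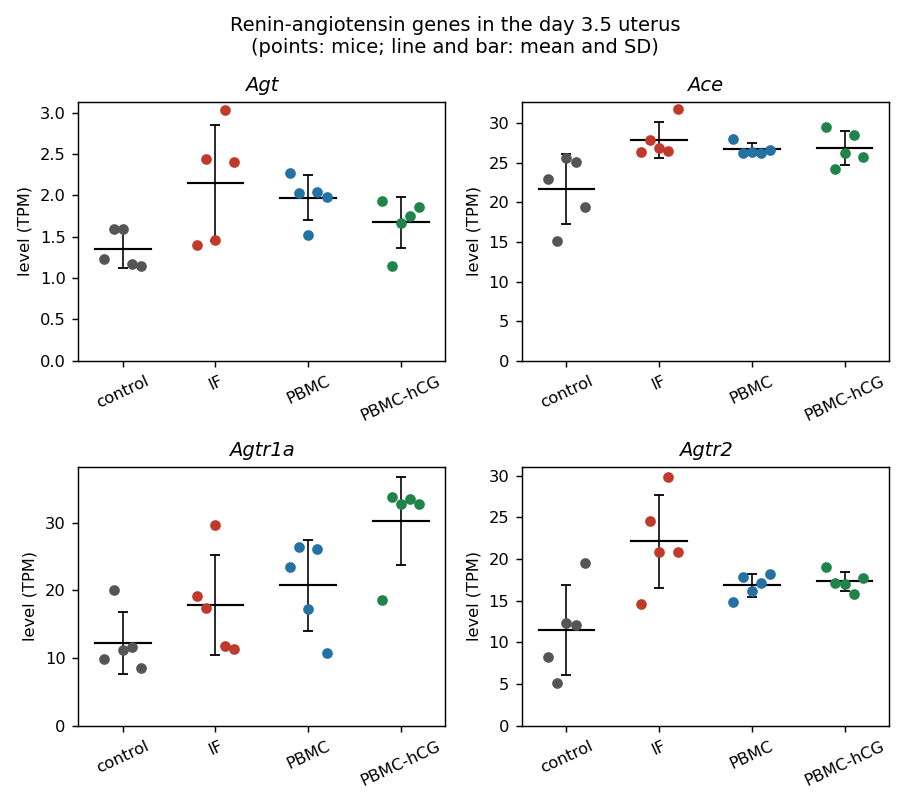
Level (TPM, axes from 0) of 4 renin-angiotensin genes in the 4 groups, with a point per mouse, a line at the mean and a bar of 1 SD (n = 5 mice). Agtr1a is highest in PBMC-hCG mice, where 4 mice sit between 32.7 and 33.7 TPM and 1 at 18.6 TPM, while the mean of Agtr2 is lowest in control mice.

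Set side by side, the comparisons with IF mice, which share the 5 IF libraries, called few of these genes. Between PBMC and IF mice none of the 9 genes was called by limma, and none had a raw p under 0.05. Of all tested genes, 0% were called and 1271, or 6.79%, had a raw p under 0.05. Between PBMC-hCG and IF mice Edn3 was called, and Edn3 and Agtr1a had a raw p under 0.05, as did 35% of all tested genes. Between PBMC-hCG and PBMC mice none of the 9 was called by limma, where 0.0107% of all tested genes were, and Edn3 and Ece1 had a raw p under 0.05, as did 16.2%.

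**Figure D4:**
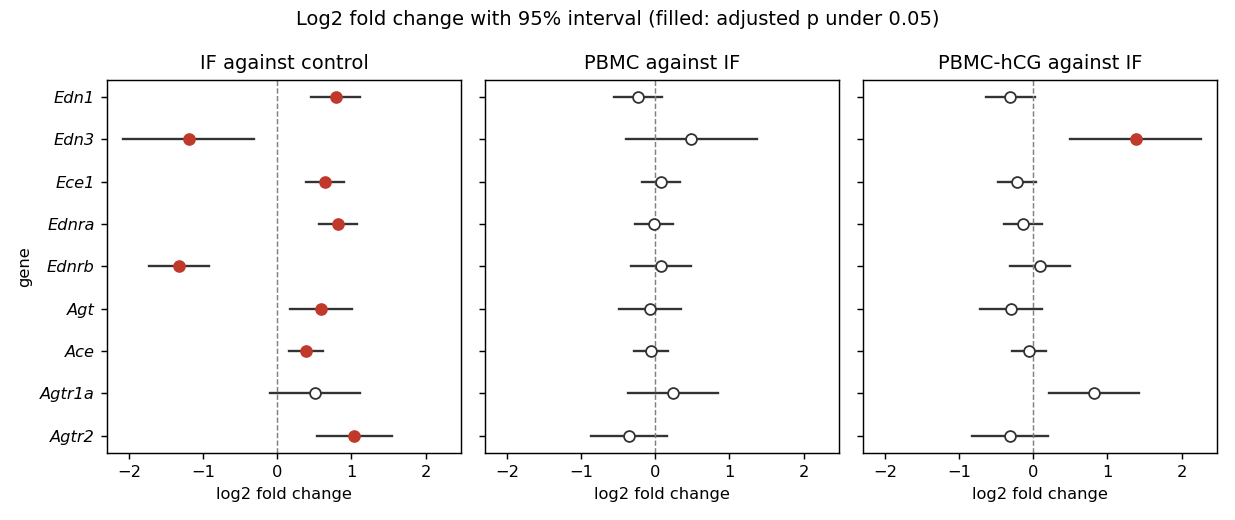
Log2 fold change (horizontal axis) of the 9 tested genes with 95% intervals in the comparisons of IF with control, PBMC with IF and PBMC-hCG with IF mice, with filled points for an adjusted p under 0.05. In the first comparison 8 of 9 points are filled, in the second none, and in the third only Edn3 at 1.38.

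Against control mice, 5 of 9 genes were called in PBMC mice, where 19.5% of all tested genes were, and 7 of 9 in PBMC-hCG mice, where 31.8% were. Of all tested genes, 12.8% were higher and 6.7% lower in the first comparison and 20.2% and 11.6% in the second. These comparisons share the 5 control libraries with that of the IF group. Ednrb was lower in both (log2 fold change -1.24 and -1.23, adjusted p = 0.000176 and 0.000131), and Ednra (0.80 and 0.68), Ece1 (0.71 and 0.41), Edn1 (0.56 and 0.48) and Ace (0.33 and 0.33) were higher in both. Without control mouse 2 the log2 fold changes of Ednrb were -0.97 and -0.96. Agtr2 (0.73, adjusted p = 0.029) and Agtr1a were called higher in PBMC-hCG mice, and in PBMC mice they had log2 fold changes of 0.68 (adjusted p = 0.0558) and 0.75 (adjusted p = 0.0788). Some of these calls rested on few mice. In PBMC mice, Ace was lost without any of 7 mice (control mice 2 and 5 and each PBMC mouse), Agtr1a was gained without control mouse 2 or PBMC mouse 5, and Agtr2 was gained without control mouse 5. In PBMC-hCG mice, Ace was lost without control mouse 5 or PBMC-hCG mouse 1 or 4, Edn1 without control mouse 1 or 5 or PBMC-hCG mouse 4, and Agtr2 without control mouse 1 or 2 or PBMC-hCG mouse 1, 2 or 5.

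A list of 47 other genes of both systems and of the signalling behind their receptors was also examined, of which 41 were tested. Between IF and control mice 9 rose and 5 fell, 34.1% against 21.9% of all tested genes, with a median log2 fold change of 0.0491 against 0.0223. This list, too, was chosen with earlier results of these data known, so the shares are a description. The smallest adjusted p was that of Rgs2, which encodes a regulator that switches off Gq, the G protein that carries type 1 angiotensin and type A endothelin signals. Rgs2 was at 453, 470, 492, 482 and 501 TPM in control mice, and at 91.4, 91.8, 95.5, 79.5 and 102 TPM in IF mice. The groups lay far apart, a 5.22-fold fall with a log2 fold change of -2.38 (SE 0.10, adjusted p = 2.97e-11). PBMC mice, at 81.1 to 98.9 TPM, and PBMC-hCG mice, at 79.1 to 127 TPM, stayed at the IF level, with log2 fold changes against IF of -0.04 (95% interval -0.26 to 0.18) and 0.05 (95% interval -0.17 to 0.27).

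Of the 19 genes of Gq coupling and receptor shut-off, 7 rose and 2 (Rgs2 and Rgs5) fell in IF mice, where 13.4% of all tested genes rose and 8.53% fell. Rgs3, another regulator of G protein signalling, rose from 44.6 ± 5.17 to 91.0 ± 16.3 TPM (SD, n = 5 each; log2 fold change 1.02, adjusted p = 8.82e-07). The receptor kinases Grk3, Grk5 and Grk2, which mark active receptors for shut-off, rose with log2 fold changes of 1.05, 0.61 and 0.23 (adjusted p = 0.000357, 0.00407 and 0.00264), and Gna13, a G protein subunit, rose by 0.42 (adjusted p = 0.000158). None of these named genes was called between PBMC-hCG and IF mice by limma, where 1 of the 19 was called higher, the receptor adaptor Arrb1 (log2 fold change 0.36, adjusted p = 0.0344), against 13.6% of all tested genes. That call of Arrb1 was lost without any of the 7 mice named for Edn3. Arrb1 had also been called higher in IF against control mice (log2 fold change 0.35, adjusted p = 0.0185). Arrb1 and Rgs5 are named here after their values were seen.

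Of the 15 tested enzymes of the renin-angiotensin system and its prorenin receptor, 1 rose and 1 fell in IF mice, where 21.9% of all tested genes were called, so the list as a whole did not exceed the background. Enpep, the aminopeptidase that turns angiotensin II into angiotensin III, was at 10.3 to 12.1 TPM in control and 17.3 to 28.8 TPM in IF mice, with no overlap (log2 fold change 1.01, SE 0.12, adjusted p = 6.33e-06). Thop1, a peptidase that cleaves angiotensin I, fell from 44.3 ± 8.73 to 29.4 ± 2.72 TPM (SD, n = 5 each; log2 fold change -0.57, adjusted p = 0.00171). Ren2 is not in the table analysed, and Ctsg was left out by the filter.

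Ren1, the renin gene, was at 2.77, 1.49, 2.65, 2.17 and 3.57 TPM in control mice. IF mice had 10.3, 2.76, 3.77, 7.91 and 19.2 TPM, PBMC mice 2.68 to 12.2 TPM and PBMC-hCG mice 7.21, 0.353, 0.961, 0.841 and 0.501 TPM. Only PBMC-hCG mouse 1 lay within the IF range, and the other 4 lay below every control mouse. Ren1 fell between IF and PBMC-hCG mice (log2 fold change -2.63, SE 0.63, adjusted p = 0.0287), while between IF and control mice its log2 fold change of 1.48 did not pass adjustment (95% interval 0.17 to 2.80, adjusted p = 0.101). Some mouse strains carry Ren2, a near-identical copy, whose reads could have been counted as Ren1. In the same comparison of PBMC-hCG with IF mice, Prep, a peptidase that cleaves after proline, fell by 0.69 on the log2 scale, while Atp6ap2, the prorenin receptor, and Prcp, a carboxypeptidase that cleaves angiotensin II, rose by 0.28 and 0.26. These 4 calls, like that of Edn3, were each lost without any of the same 7 mice. In all, 5 of the 41 genes rose and 2 fell in PBMC-hCG against IF mice, 17.1% against 13.6% of all tested genes (7.61% higher and 5.99% lower), and none was called by limma between PBMC and IF or between PBMC-hCG and PBMC mice.

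Of 2 tested enzymes of endothelin processing and breakdown, Ece2, another endothelin-converting enzyme, fell from 18.9 ± 3.63 to 12.5 ± 2.03 TPM in IF mice (SD, n = 5 each; log2 fold change -0.59, adjusted p = 0.00498), and Mme, neprilysin, was not called (log2 fold change -0.33, 95% interval -0.995 to 0.34). Of all tested genes, 21.9% were called between IF and control mice, 13.4% higher and 8.53% lower. Ecel1, Kel and Mmel1 were left out by the filter. Ecel1, an enzyme related in sequence to Ece1, was listed at 0 in 2 control mice and at most at 0.244 TPM in the others. It was at 0.592 to 5.39 TPM in IF mice, so the groups did not overlap, which held for 12.8% of all tested genes. Of 5 tested other angiotensin receptors and partners, Mtus1 rose and Mas1, a receptor of a shorter angiotensin named after its values were seen, fell (log2 fold change -0.81, adjusted p = 0.028). The same share of 21.9% of all tested genes stands beside these calls. Mas1 was low, and its groups overlapped, at 0.270 to 0.678 TPM in control and 0.139 to 0.411 TPM in IF mice. Mtus1, whose protein binds the type 2 angiotensin receptor, rose in IF against control mice (0.30, adjusted p = 0.0291) and again in PBMC-hCG against IF mice (0.38, adjusted p = 0.0287). The first of these calls was lost without any of 5 mice (control mice 3 and 5 and IF mice 1, 2 and 3) and the second without any of the 7 named for Edn3. Mrgprd was left out by the filter.

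**Figure D5:**
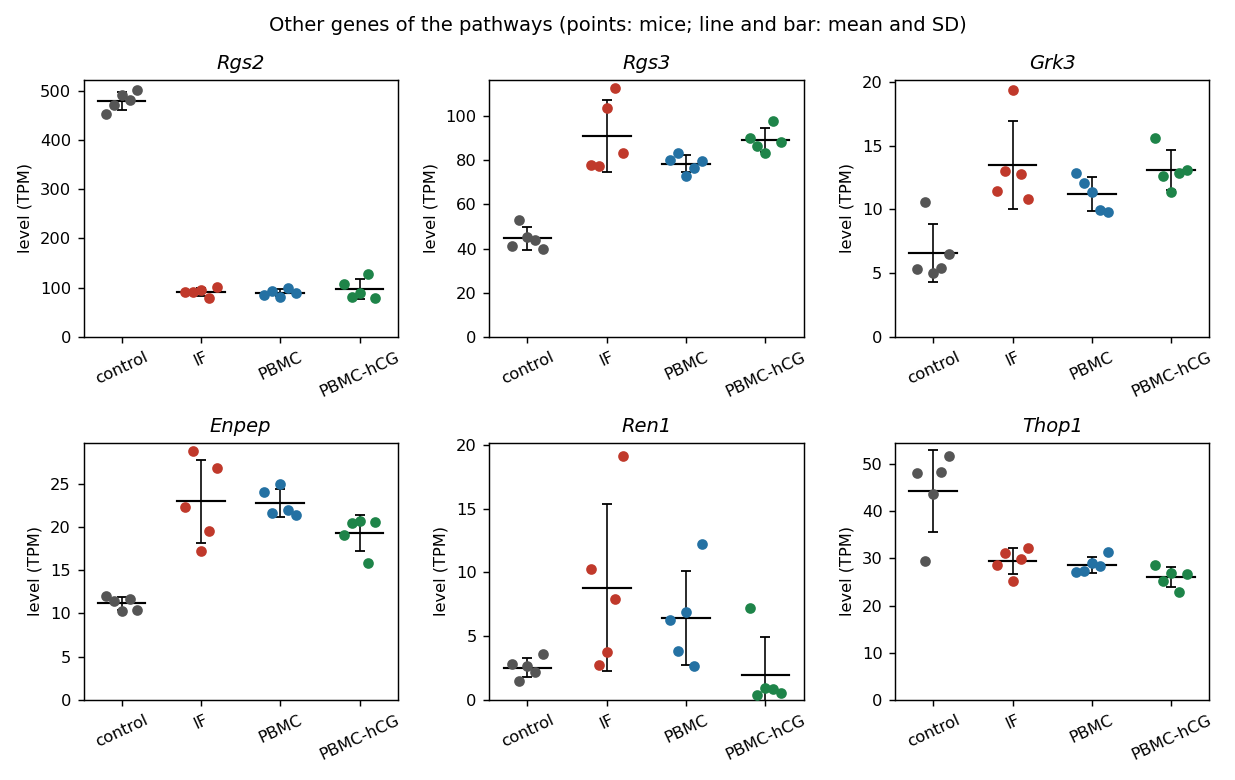
Level (TPM, axes from 0) of 6 further genes of both systems in the 4 groups, with a point per mouse, a line at the mean and a bar of 1 SD (n = 5 mice). Rgs2 lies between 453 and 501 TPM in control mice and between 79.1 and 127 TPM in the 15 other mice, and Ren1 lies below 1 TPM in 4 of 5 PBMC-hCG mice, where its SD bar is cut off at 0.

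Markers of several cell types moved with the change between control and IF mice, where 21.9% of all tested genes were called. All 7 endothelial markers rose, with a median log2 fold change of 0.42, and their summed level was 379 to 517 TPM in control, 581 to 626 TPM in IF, 573 to 667 TPM in PBMC and 641 to 723 TPM in PBMC-hCG mice. Of 6 pericyte markers 4 (Abcc9, Cspg4, Kcnj8 and Pdgfrb) rose and Rgs5 fell, with summed levels of 366 to 533 TPM (control) and 455 to 520 TPM (IF). Of 6 epithelial markers 4 (Cdh1, Epcam, Krt8 and Krt18) rose, with summed levels of 502 to 921 TPM and 755 to 974 TPM. Of 6 smooth muscle markers none rose and Acta2 fell, with summed levels of 5640 to 9219 TPM and 5635 to 6706 TPM. Of 6 stromal markers Dcn rose and Hoxa10 fell, and their summed level was 4280 to 5663 TPM in control and 6097 to 7063 TPM in IF mice. Leukocyte markers, of which 2 of 7 tested (Adgre1 and Ptprc) rose, had summed levels of 595 to 784 TPM and 575 to 817 TPM. No mast cell or red cell marker of 7 and 5 was called by limma, 1 of 5 gland markers (Foxa2) and 1 of 4 tested ovary and oviduct markers (Ovgp1) fell, and no adipocyte marker could be tested. The part of these markers in the changes of the receptors, ligands and enzymes was not tested. The reference genes Gapdh and Rplp0 had log2 fold changes of -0.0030 and 0.07 between IF and control mice, and neither was called.

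Genes whose pattern over the 20 mice was most like that of the receptors were found by the root mean square difference of their standardized log2 values. For Ednrb these were Ctla2a (0.337 SD), Mef2a (0.371 SD) and Nfx1 (0.377 SD), and for Ednra they were Heg1 (0.328 SD), Lsp1 (0.338 SD) and Pxdn (0.343 SD).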

How the data were processed

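Uterine poly(A) RNA of 20 mice was sequenced from stranded libraries. The deposited values are TPM per gene, computed by the authors. Their methods name Trimmomatic for trimming, HISAT2 for alignment against mm10 and StringTie for assembly (versions not given in the sources used here). The totals per library lay between 999988.5 and 999999.4 TPM, so depth is unknown and no counting interval is given.

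Values were transformed to log2(TPM + 0.1), which draws fold changes of low genes toward 0. Genes were kept if every one of the 20 libraries exceeded 0 TPM, which left 18706. All 4 groups entered a shared limma fit (version 3.58.1, R 4.3.3) that lets the variance follow the mean and has no term for the replicate number. Within each of 6 comparisons the Benjamini-Hochberg adjustment ran over all tested genes, and genes with an adjusted p under 0.05 were called higher or lower. The limma p-values set a difference between groups against the spread between mice within groups, which was estimated over all 4 groups. The authors used edgeR's exact test on counts, which cannot be run on TPM, calling genes changed 2-fold or more at a raw p under 0.05, and this criterion was tried as an alternative. Edn2 was tested by a two-sided exact permutation test of TPM over the 252 arrangements of 5 against 5 mice. In the 6 comparisons this exact permutation test gave p = 0.563 to 1, where 0.00794 is the smallest it can give. The method was tested on simulated data. Other software was data.table (1.17.8), pandas (2.3.3) and matplotlib (3.10.9).

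Groups, replicate numbers, doses and times follow the labels and, for the treatment, the study's methods. Positions and promoters are those of RefSeq in GRCm38.p6. The genes and all lists were chosen with earlier results of these data known. Other pathway genes are named where they had an adjusted p under 0.05 between IF and control or PBMC-hCG and IF mice and a mean of at least 1 TPM, at most 6 per list, or were not tested. Genes with a similar pattern were sought for the 2 members with the smallest adjusted p between IF and control mice. Alternatives were other pseudocounts (0.01 and 1), filters, scalings, fits and thresholds, and each mouse left out in turn. For the pathway genes these were added after seeing the data. No batch or date is given in the labels.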

Additional observations from a re-analysis of the deposited data

Results flagged for a closer look

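In 7 of the 40 combinations of gene and group, a mouse lay far from the other 4, with a gap to its nearest neighbour that took up more of the group's range than Dixon's 95% limit of 0.71 allows. For independent groups of normally distributed values, chance gives about 1 in 20, or 2 of 40. The values here are TPM, Edn2 was at 0 in 3 of 5 mice of every group, and several flags fell on the same mouse. The 2 counts can therefore not be compared strictly. In the control group, mouse 2 was highest for Ednrb (80.0 TPM, the next 34.3 TPM, a gap share of 0.906) and for Agtr1a (20.1 TPM, the next 11.6 TPM, 0.741). In the PBMC-hCG group, mouse 1 was highest for Ednrb (18.4 TPM, the next 15.6 TPM, 0.87) and for Ece1 (126 TPM, the next 106 TPM, 0.739) and lowest for Agtr1a (18.6 TPM, the next 32.7 TPM, 0.934). Ace was highest in IF mouse 5 (31.9 TPM, the next 27.9 TPM, 0.738) and in PBMC mouse 1 (28.0 TPM, the next 26.6 TPM, 0.756).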

How the results depend on the processing

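In the comparison of IF with control mice, Ednrb, Ednra, Edn1 and Ece1 kept their direction under every setting tried and their call under every one but the study's fold criterion, which only Ednrb of them met, with log2 fold changes of -1.41 to -1.05, 0.70 to 0.89, 0.66 to 0.90 and 0.53 to 0.70 with single mice left out. Over all comparisons, the members' log2 fold changes had the same direction and side of the threshold in 459 values under other settings and 482 with a mouse left out, lost a call in 22 and 39, gained a call in 1 and 5 and changed sign in 4 and 14. With only the compared groups in the fit, the members called were 4 for IF against control (Agtr2, Ace, Agt and Edn3 lost), 3 for PBMC against control (Edn1 and Ace lost) and 4 for PBMC-hCG against control (Edn1, Ace and Agtr2 lost), and 9 pathway genes were called for IF against control. With the study's criterion, the members called were 3, 1 and 2 for IF, PBMC and PBMC-hCG against control, and the pathway genes called were 5, 2 and 3. That criterion gave 2 pathway genes for PBMC-hCG against IF and 2 for PBMC-hCG against PBMC. Without the filter, which adds genes to the adjustment, PBMC-hCG against IF had 0 members and 4 pathway genes called. Leaving out each mouse gave 6 to 8, 4 to 5 and 5 to 7 members called for IF, PBMC and PBMC-hCG against control, 0 to 2 for PBMC-hCG against IF and 0 for both other comparisons. Pathway genes called were then 11 to 16, 13 to 18 and 15 to 25 against control, 0 to 12 for PBMC-hCG against IF and 0 to 1 for PBMC-hCG against PBMC. Signs changed near 0 only: with median scaling, Ace and Ednrb were at -0.0205 and -0.0143 for PBMC-hCG against PBMC, and with quantile normalization Ednrb was at -0.0085 there and Ednra at 0.0037 for PBMC against IF. With a mouse left out, the ranges that crossed 0 were -0.0201 to 0.373 for Edn3 (PBMC-hCG against control), -0.0830 to 0.0511 for Ednra and -0.201 to 0.0663 for Agt (both PBMC against IF), and, for PBMC-hCG against PBMC, -0.139 to 0.0142 for Edn1, -0.0595 to 0.0482 for Ednrb and -0.0310 to 0.0407 for Ace. With the replicate number as a block, 2 members were called for PBMC-hCG against IF (Agtr1a gained, adjusted p = 0.0448), Agt was lost for IF against control (adjusted p = 0.0623) and no other call of a member changed. Deviations of mice with the same number correlated at -0.247 to 0.457, and not in every pair above 0.1, so the numbers were not taken to pair the mice. The highest value was among the mice numbered 5 (-0.0896 to 0.457), and no pair numbered 1 to 4 exceeded 0.16. Where no cause is named for these changes, the cause was not tested. Depth is unknown, so how far it limits the low values of Agt, Edn2 and Ren1 cannot be said.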
